A study of Mus musculus with 8 samples.

Results

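The nuclear genes for complexes I to IV of the mitochondrial respiratory chain were examined on 8 expression arrays of newborn mouse palate. Genes were taken by symbol (Nduf, Uqcr, Sdha to Sdhd, Cox4i and Cox5 to Cox8, without Cox7a1 and Cox8b) and each was read by the probe set, among those naming that gene alone, with the highest mean level. This gave 75 of the 18194 genes with such a probe set, and 73 of them lay above the level filter. The 75 comprised 6 core and 28 accessory subunits of complex I, 4 subunits of complex II, 8 of complex III, 10 widely expressed subunits of complex IV, 7 tissue isoforms and paralogs of complex IV, and 12 assembly factors that share the Nduf and Sdha symbols. Ndufb4 and Cox7b2 lay below the filter, with levels of 4.29 to 4.63 and 4.17 to 4.57 over the 8 arrays. The level of Ndufb4 is uncertain, since 2 probe sets shared with its copies Ndufb4b and Ndufb4c, not used for any gene, lay at 10.01 to 11.23.

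The study asked how nicotine given to pregnant mice bears on gene expression in the palate of their pups. The samples were the rear part of the palate of BALB/c pups on postnatal day 1. Their dams carried under the skin an osmotic minipump, a device that releases its contents steadily, that delivered nicotine at 1.5, 3.0 or 4.5 mg/kg/day or, in the controls, sterile saline. All 4 groups were measured in duplicate, on arrays that the labels call biological replicates. The sources used here do not say how many pups or litters an array stands for. The p-values therefore set differences against the spread between these arrays, which need not be the spread between litters.

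The respiratory chain lies in the inner mitochondrial membrane. Complex I oxidizes NADH and complex II oxidizes succinate, both pass electrons to ubiquinone, complex III passes them on to cytochrome c, and complex IV passes them to oxygen. Complexes I, III and IV pump protons as they do so, and the proton gradient drives ATP synthesis. Heart, skeletal muscle and brown fat are rich in mitochondria and use their own isoforms of some complex IV subunits. The catalytic subunits of complex IV and some of complexes I and III are encoded in mitochondrial DNA and were not part of the gene set.

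The promoters of respiratory chain genes are known for sites of the transcription factors NRF1, GABP, YY1 and ERRalpha. RefSeq promoter sequences of build GRCm38.p6, running from 250 bases before to 50 bases after the start of each gene, were found for 61 of the 75 genes. Those of Ndufs4 and Ndufb5 are shown because both genes passed the test described later. The Ndufs4 promoter lies at chr13:114388045-114388344 on the reverse strand and holds the YY1 letters AAGATGGC, in capitals, 35 bases after the start. The Ndufb5 promoter lies at chr3:32736813-32737112 on the forward strand and holds none of the 4 motifs searched. Both are written 5′ to 3′ on the strand of the gene.
Ndufs4: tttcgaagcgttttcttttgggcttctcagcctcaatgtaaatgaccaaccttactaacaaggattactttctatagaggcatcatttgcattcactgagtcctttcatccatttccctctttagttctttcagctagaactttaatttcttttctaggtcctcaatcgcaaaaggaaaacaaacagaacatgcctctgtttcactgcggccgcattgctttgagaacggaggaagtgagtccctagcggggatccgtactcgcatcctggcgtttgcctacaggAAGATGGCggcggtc
Ndufb5: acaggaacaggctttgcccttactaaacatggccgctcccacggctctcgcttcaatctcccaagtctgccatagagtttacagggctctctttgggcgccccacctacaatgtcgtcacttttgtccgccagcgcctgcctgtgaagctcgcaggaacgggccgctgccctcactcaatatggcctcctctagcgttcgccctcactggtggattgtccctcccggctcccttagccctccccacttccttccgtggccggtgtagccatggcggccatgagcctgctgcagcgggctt
No entry was found for Cox6a2 and Ndufa4l2.

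Each motif was searched as 8 letters on both strands. A gene was counted once if any of its promoters held the letters, while the shares of all promoters count each promoter singly. The NRF1 letters (GCATGCGC) were found in 8 of 61 genes, or 13.1%, against 2.71% of all 32851 promoters and 5.49% of tested genes with a promoter. The YY1 letters were found in 7, or 11.5%, against 2.75% of all promoters and 4.73% of tested genes with a promoter. The GABP letters (CCGGAAGT) were found in 4, or 6.56%, against 3.89% and 8.01%. The ERRalpha letters (CAAGGTCA) were found in 2, or 3.28%, against 1.56% and 1.42%. In all, 20 genes had at least 1 of the 4, and 1 had more than 1 kind. A match is a description of the letters and not a site. The 8 genes with the NRF1 letters were Ndufa6, Ndufa8, Sdhb, Uqcr11, Uqcrc1, Cox6a1 and the assembly factors Ndufaf4 and Ndufaf5. None of the 4 genes that passed the test was among them, but Cox6a2 and Ndufa4l2 had no promoter entry and could not be searched. The match and its neighbours are shown for 1 gene of each complex, the one with the larger fold change where a complex had several, chosen after the values were seen. Capitals mark the NRF1 letters on either strand, which overlap each other in Uqcrc1 and Cox6a1. The windows lie at chr15:82354351-82354390 (reverse strand), chr4:140961201-140961240 (forward), chr9:108936662-108936697 (forward) and chr5:115349095-115349136 (reverse).
Ndufa6: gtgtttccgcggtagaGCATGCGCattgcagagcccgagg
Sdhb: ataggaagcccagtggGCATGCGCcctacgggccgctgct
Uqcrc1: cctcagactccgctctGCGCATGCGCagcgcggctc
Cox6a1: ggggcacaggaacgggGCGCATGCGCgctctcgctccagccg

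Several arrays stood apart by markers of other tissues. The list for palate mesenchyme also holds patterning genes, so its levels do not by themselves test the label palate. Of its 11 measured genes, 5 or 6 per array lay above the 60th percentile of all probe sets, and their median log2 level was 5.15 to 5.85. Of 8 genes of oral epithelium, 4 to 8 per array lay above it, and their summed intensity was 478 to 3413 in the nicotine arrays and 1879 and 3193 in the saline arrays. Markers of skeletal muscle, which the soft palate contains, were high throughout, with 19 or 20 of 20 genes above that percentile. Their summed intensity was 46190 to 61660 in the nicotine arrays and 30395 and 41406 in the saline arrays. Liver genes summed to 20133 in replicate 2 at 1.5 mg/kg/day and to 152 to 248 in the other nicotine arrays, against 16986 and 45882 in saline. Stomach genes summed to 250 to 434 in the nicotine arrays, against 11366 and 11709 in saline, and intestine genes to 258 to 1145, against 10318 and 20211. Heart genes stood out in replicate 2 at 1.5 mg/kg/day (12946, against 1422 to 2861 on the other arrays), kidney genes in saline replicate 2 (2773, against 63.5 to 190 on the others), and lung genes on 5 nicotine arrays (1502 to 13860, against 103 to 119 on the other 3). Since the digestive tract markers were high on both saline arrays and on no nicotine array, that difference and the treatment cannot be told apart.

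Markers of brown fat, a heat-producing tissue rich in mitochondria, also differed between arrays. The 11 measured genes summed to an intensity of 12514 and 14768 at 3.0 mg/kg/day and 13081 in replicate 1 at 4.5 mg/kg/day. On the other 5 arrays, saline included, the sums were 1037 to 3790. The list includes Cox7a1 and Cox8b, the respiratory chain genes left out of the gene set. Cox7a1 and Cox8b had intensities of 174 and 398 on saline replicate 1 and 165 and 198 on saline replicate 2. They had 947 and 1356 on replicate 2 at 1.5 mg/kg/day and 1827 and 2712 on replicate 1 at 3.0 mg/kg/day. On replicate 2 at 4.5 mg/kg/day they had 1018 and 1553. Of the list, 9 genes had a positive difference for the mean of the doses, while Slc27a2, a fatty acid transport gene also known from liver and kidney, and Prdm16 had negative ones (-2.66 and -0.74) that did not pass. Slc27a2 made up 2244 of the sum of 2925 on saline replicate 2. Without it the sums were 12381 and 14557 at 3.0 mg/kg/day and 12882 in replicate 1 at 4.5 mg/kg/day, 1024 to 3731 on the other 3 nicotine arrays, and 872 and 681 in saline. Ucp1, the uncoupling protein that defines brown fat, had log2 levels of 4.43 and 4.24 in saline, 4.43 and 8.69 at 1.5, 12.12 and 12.27 at 3.0 and 11.89 and 6.65 at 4.5 mg/kg/day. It was near background on both saline arrays and on replicate 1 at 1.5 mg/kg/day. The ratio of 3′ to 5′ actin probe sets, a sign of RNA integrity, was 0.954 to 1.39 on the nicotine arrays and 1.65 and 1.74 on the saline arrays. The part of these differences in the results that follow was not tested, except for the values given without the arrays named. In whole tissue, fewer cells of a type and less RNA per cell cannot be told apart.

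**Figure D1:**
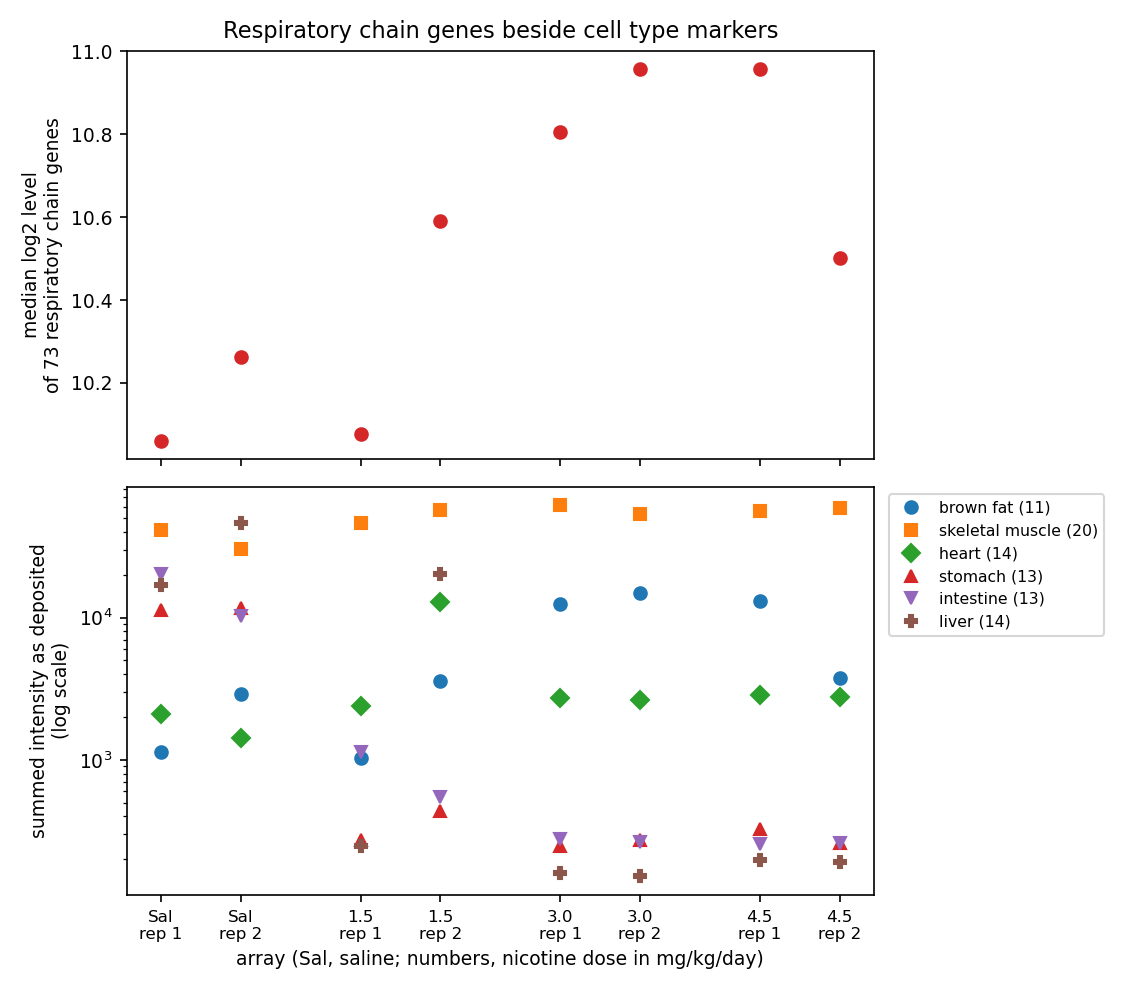
The upper panel plots the median log2 level of the 73 respiratory chain genes on each array, and the lower panel the summed intensity (log scale) of the markers of 6 tissues, with the number of genes in brackets. The arrays are ordered from saline to 4.5 mg/kg/day. The 3 arrays with the highest respiratory chain medians (10.81 to 10.96) were the 3 with brown fat sums of 12514 to 14768. The brown fat sums include Cox7a1 and Cox8b, respiratory chain genes outside the 73.

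As a class, respiratory chain genes lay higher than in saline at 3.0 and 4.5 mg/kg/day, most of all at 3.0, and on replicate 2 at 1.5 mg/kg/day. Few passed the test one by one. On the log2(intensity + 16) scale their median level was 10.06 and 10.26 in saline, 10.08 and 10.59 at 1.5, 10.81 and 10.96 at 3.0 and 10.96 and 10.50 at 4.5 mg/kg/day. Only replicate 1 at 1.5 mg/kg/day lay between the saline arrays, and the other 5 nicotine arrays lay above both. The median of all 13587 tested genes was 6.85 to 6.90 on every array. For the mean of the 3 doses over saline, 70 of 73 genes had a positive difference, against 56.0% of all genes tested, and the median log2 fold change was 0.47, against 0.066 for all genes.

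In that comparison 4 of 73 genes rose (Cox6a2, Ndufs4, Ndufb5 and Ndufa4l2), where 4.75% of all genes were called higher, and 0 fell, where 5.40% were called lower (limma, adjusted p under 0.05 over all genes). At an unadjusted p under 0.05, 31 of the 73 were higher (17.0% of all genes) and 0 lower (13.8%). At 1.5 mg/kg/day, 0 were higher (0.729% of all genes) and 0 lower (1.75%), with 2 higher (11.1%) and 1 lower (10%) at an unadjusted p under 0.05, smaller shares than among all genes. At 3.0 mg/kg/day, 3 were higher (1.35%) and 0 lower (2.38%), and 43 were higher (14.2%) at an unadjusted p under 0.05. At 4.5 mg/kg/day, 3 were higher (2.92%) and 0 lower (4.0%), and 26 were higher unadjusted (15.8%). The slope over the doses rose in 3 genes (3.02%) and fell in 0 (3.92%), and 46 had a positive slope at an unadjusted p under 0.05 (16.5%). The counts of calls, at most 4, do not by themselves set the 73 genes apart from all genes. The 4 calls for the mean of the doses became 0 without either array at 3.0 mg/kg/day, 1 without saline replicate 2 or replicate 1 at 4.5 mg/kg/day, 2 without saline replicate 1, and 8 without replicate 1 at 1.5 mg/kg/day. The shares of all genes called without these arrays are not given here, so these counts are not a result about the 73 genes alone. An F test for any difference among the 4 groups called 0 of the 73 and 1.97% of all genes.

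The median log2 fold change over saline was 0.18 at 1.5, 0.69 at 3.0 and 0.57 at 4.5 mg/kg/day, beside 0.042, 0.061 and 0.064 for all genes. These 3 comparisons share the saline arrays. The number of genes with a positive difference was 54, 73 and 69 of 73 in the same order, beside 54.1%, 55.5% and 54.8% of all genes. Without the 2 arrays highest in liver genes, which leaves 1 array each in saline and at 1.5 mg/kg/day, the median at 1.5 mg/kg/day was -0.05 and 32 of 73 were positive (52.9% of all genes). Set against each other, the doses gave 0 calls among the 73 in each of the 3 comparisons, and 0% of all genes were called in either direction. The median difference was 0.54 for 3.0 over 1.5, with 24 of 73 higher at an unadjusted p under 0.05 (6.54% of all genes), and 0.39 for 4.5 over 1.5, with 6 higher (4.04%). It was -0.13 for 4.5 over 3.0, with 1 lower (2.03%). The smallest adjusted p among the 73 was 0.32, 0.686 and 1 (limma).

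The order of the arrays was more uniform than the calls. Both arrays at 3.0 mg/kg/day lay above both saline arrays in 69 of 73 genes (34.8% of all genes did so), and in 0 genes did both lie below (25.4%). At 4.5 mg/kg/day the counts were 56 above (32.2%) and 0 below (24.8%). At 1.5 mg/kg/day 11 genes lay above (27.4%) and 5 below (21.7%). The arrays of the lowest dose differed from each other: replicate 1 lay below both saline arrays in 31 genes (33.9%), while replicate 2 lay above both in 59 (39.2%). Replicate 2 was the higher one in 43 of 73 genes in saline, 65 at 1.5, 63 at 3.0 and 7 at 4.5 mg/kg/day. The median gap, replicate 2 minus replicate 1, was 0.08 in saline, 0.47 at 1.5, 0.15 at 3.0 and -0.46 at 4.5 mg/kg/day, while over all genes it lay between -0.0135 and 0.0088. The highest level fell on replicate 2 at 3.0 mg/kg/day in 32 genes (10.2% of all genes) and on replicate 1 at 4.5 mg/kg/day in another 32 (14.0%). Replicate 2 at 4.5 mg/kg/day, where Ucp1 was at 6.65, lay above both saline arrays in 58 of 73 genes (42.7%). Its brown fat sum without Slc27a2 was 3731, against 872 and 681 in saline, and the part of brown fat in this order was not tested.

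Without the 3 arrays highest in brown fat genes, a choice made after the data were seen, the median log2 fold change over saline of the remaining nicotine arrays was 0.20 (0.060 for all genes) and 64 of 73 genes were positive (55.3%). None of the 73 was then called by limma, where 0.184% of all genes were, and 5 passed at an unadjusted p under 0.05, where 17.0% of all genes did.

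**Figure D2:**
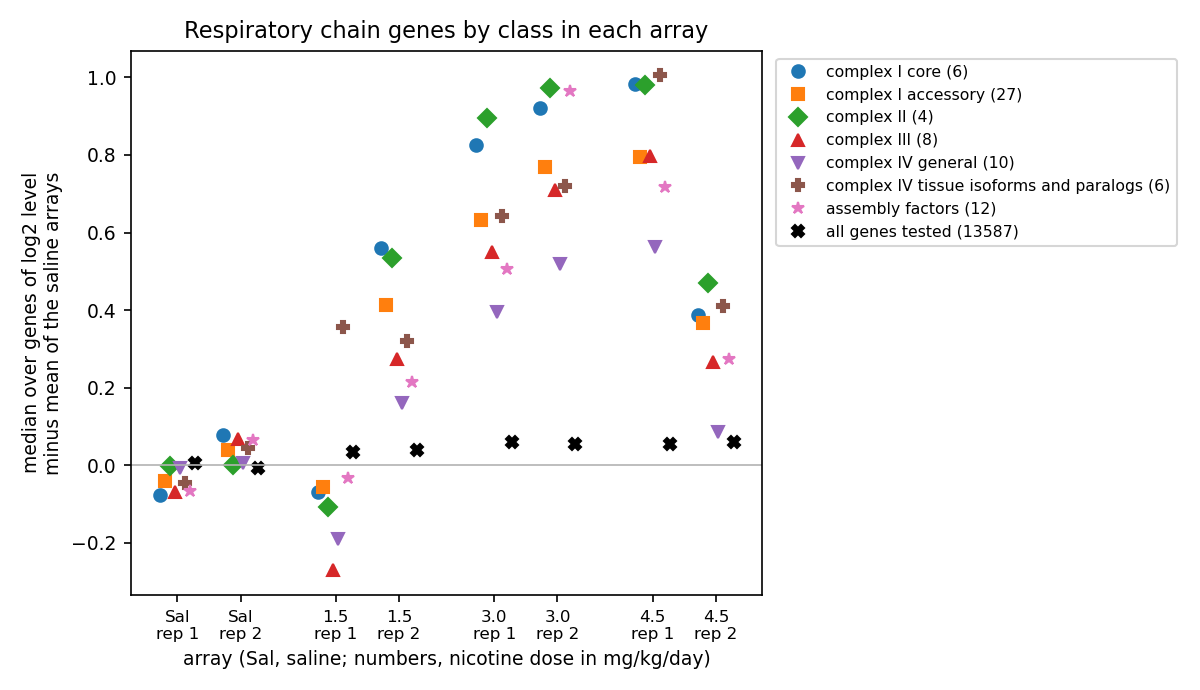
For each array, the points give the median over genes of the log2 level minus the gene's mean over the saline arrays, by class of gene (number of genes in brackets), with all tested genes as black crosses. The core subunits of complex I and complex II lay at 0.83 to 0.97 at 3.0 mg/kg/day, the widely expressed subunits of complex IV at 0.39 and 0.52, and all genes stayed at or below 0.061.

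The core subunits of complex I carry its flavin and iron-sulfur clusters and make the path from NADH to ubiquinone. All 6 measured core genes lay above both saline arrays on both arrays at 3.0 and at 4.5 mg/kg/day, and none passed the test. Ndufs1, the largest subunit and a carrier of iron-sulfur clusters, had log2 levels of 9.06 and 9.27 in saline, 9.11 and 9.93 at 1.5, 10.16 and 10.26 at 3.0 and 10.31 and 9.72 at 4.5 mg/kg/day. Replicate 1 at 1.5 mg/kg/day lay within the saline range and the other 5 nicotine arrays lay above it. Its log2 fold change for the mean of the doses was 0.75 ± 0.26 (adjusted p = 0.11, limma), the largest of the 6. Ndufv1, which binds NADH, gave 0.59 ± 0.25, and Ndufv2, its partner, gave 0.61 ± 0.19. Ndufs3 gave 0.58 ± 0.22. Ndufs7 and Ndufs8, which hold the clusters nearest ubiquinone, gave 0.63 ± 0.23 and 0.55 ± 0.29. The 6 fold changes thus spanned 0.55 to 0.75, with adjusted p between 0.0848 and 0.236.

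Accessory subunits surround that core and are needed for its assembly and stability. Of 27 tested, 2 rose in the mean of the doses (Ndufs4 and Ndufb5) and 0 fell, and the median log2 fold change was 0.52. Ndufs4, a subunit next to the NADH-oxidizing module whose loss causes a Leigh-like brain disease in mice, had log2 levels of 9.52 and 9.26 in saline, 9.48 and 9.80 at 1.5, 10.31 and 10.55 at 3.0 and 10.57 and 10.61 at 4.5 mg/kg/day. Both arrays at 3.0 and both at 4.5 mg/kg/day lay above every saline and low-dose array, and the low dose overlapped saline. Its level averaged 10.59 ± 0.03 at 4.5 mg/kg/day and 9.39 ± 0.18 in saline (SD, n = 2 arrays each). The log2 fold change was 0.83 ± 0.16 for the mean of the doses (adjusted p = 0.028, limma), 1.04 ± 0.20 at 3.0 (adjusted p = 0.0415) and 1.20 ± 0.20 at 4.5 mg/kg/day (adjusted p = 0.0228). Its slope of 0.29 ± 0.04 log2 units per mg/kg/day also passed (adjusted p = 0.0148). Ndufs4 has 4 probe sets above the filter, and their differences between nicotine and saline ran from 0.23 to 0.83, all positive, with the chosen one the largest. The call was lost without saline replicate 2 (adjusted p = 0.109) and without any 1 of the 4 arrays at 3.0 and 4.5 mg/kg/day (adjusted p = 0.0564 to 0.0915).

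Ndufb5, a subunit of the membrane arm, had log2 levels of 10.14 and 10.27 in saline, 10.49 and 10.74 at 1.5, 11.08 and 11.19 at 3.0 and 11.16 and 10.95 at 4.5 mg/kg/day. All 6 nicotine arrays lay above both saline arrays. The log2 fold change was 0.73 ± 0.15 for the mean of the doses (adjusted p = 0.0307, limma), 0.93 ± 0.18 at 3.0 (adjusted p = 0.0424) and 0.85 ± 0.18 at 4.5 mg/kg/day (adjusted p = 0.0423), and the slope was 0.21 ± 0.04 (adjusted p = 0.0302). Its other probe set above the filter gave 0.28, against 0.73 for the chosen one. The call was kept without either low-dose array or replicate 2 at 4.5 mg/kg/day, and the adjusted p was 0.0643 to 0.1 without any 1 of the other 5 arrays. Ndufb2, also of the membrane arm, had log2 levels of 9.44 to 10.49 on the nicotine arrays and 9.05 and 9.33 in saline. It too was above saline on all 6 nicotine arrays, but its fold change of 0.83 ± 0.24 did not pass (adjusted p = 0.0722). Ndufs5 gave 0.80 ± 0.23 (adjusted p = 0.07). Ndufa10 had the widest gap within a group in complex I, 0.86 log2 units at 4.5 mg/kg/day, and gave 0.75 ± 0.30 (adjusted p = 0.146).

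Ndufb9 was the accessory subunit with the highest mean log2 level (11.41) and gave 0.58 ± 0.21 (adjusted p = 0.116, limma). Ndufb1 was the lowest that passed the filter (5.82). The smallest difference was that of Ndufa2, at 0.05 ± 0.21, whose levels in replicates 1 and 2 at 4.5 mg/kg/day fell on either side of both saline arrays. Both arrays at 3.0 mg/kg/day lay above both saline arrays in all 27 accessory genes, and both at 4.5 mg/kg/day in 23. At 1.5 mg/kg/day this held for 3.

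**Figure D3:**
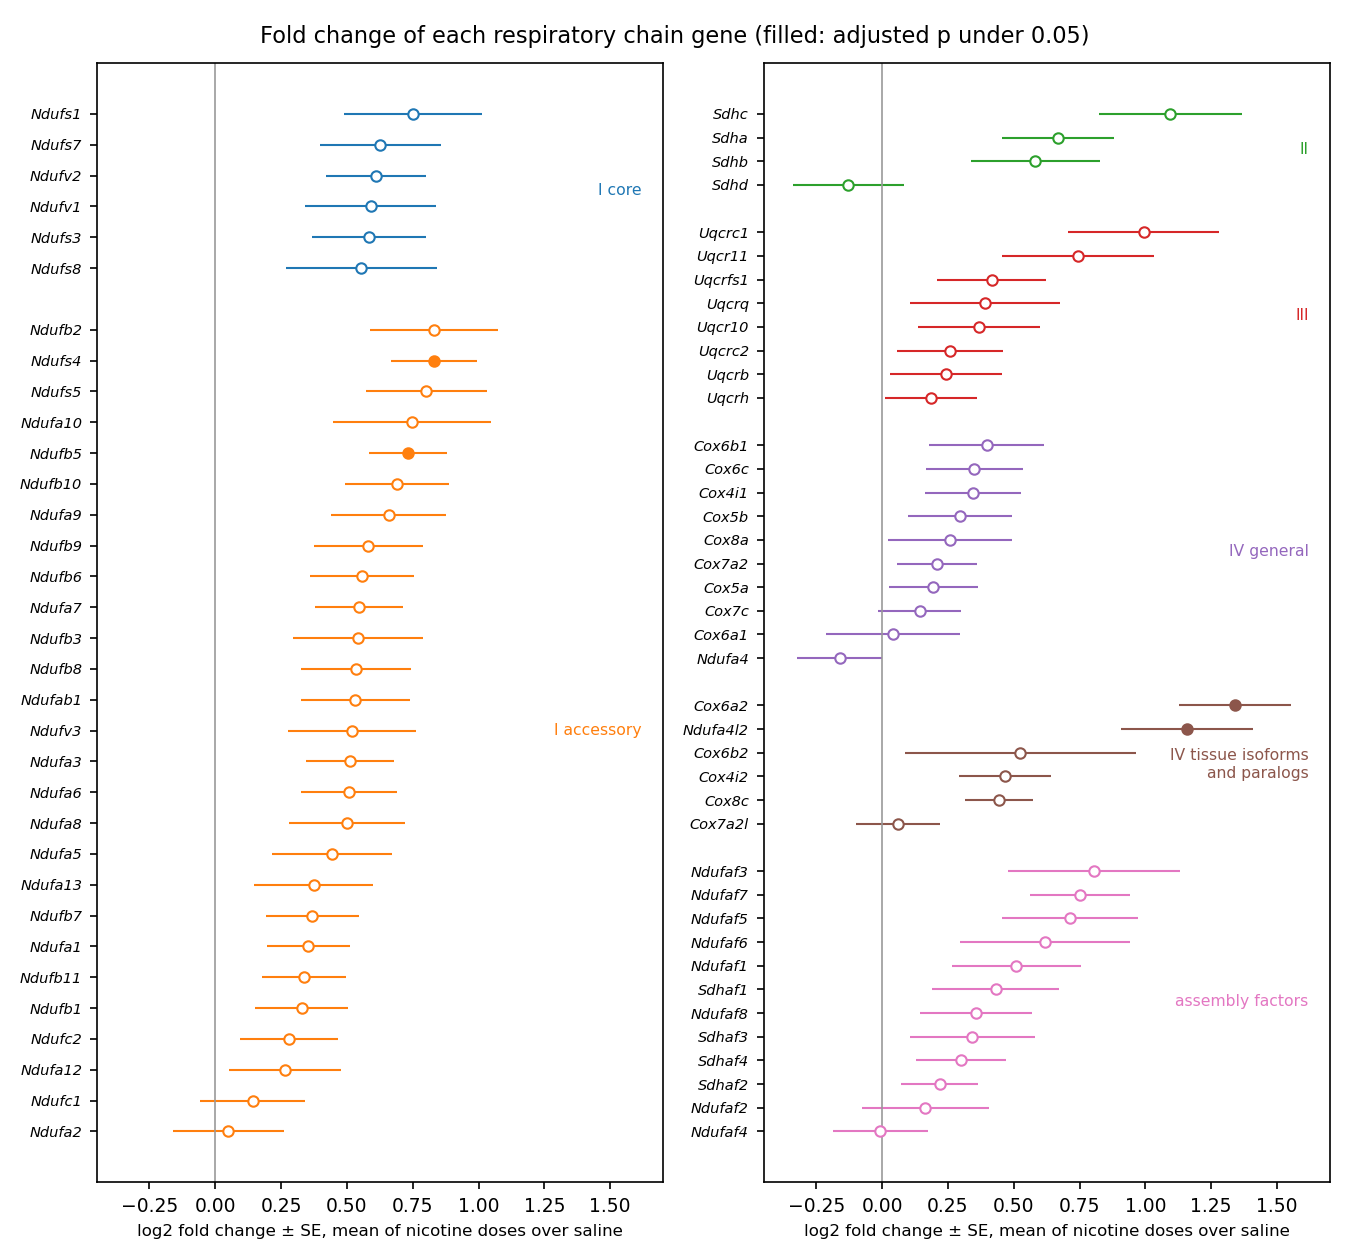
Each point is the log2 fold change of 1 gene for the mean of the nicotine doses over saline, with its standard error as a bar, grouped by complex and ordered by size. Filled points passed the test (Cox6a2, Ndufa4l2, Ndufs4 and Ndufb5), and 70 of 73 points lie right of 0.

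Complex II is at once the succinate dehydrogenase of the tricarboxylic acid cycle, and none of its 4 subunits passed the test. Sdhc, 1 of the 2 membrane anchors that hold the heme and the ubiquinone site, had log2 levels of 8.27 and 9.22 in saline, 9.29 and 9.65 at 1.5, 10.11 and 10.21 at 3.0 and 10.09 and 9.68 at 4.5 mg/kg/day. All 6 nicotine arrays lay above both saline arrays, and the saline arrays differed by 0.95, the widest gap in the complex. The fold change was 1.09 ± 0.27 (adjusted p = 0.0508, limma), just outside the threshold. Without saline replicate 2 it was 1.57 and passed (adjusted p = 0.0222), and without saline replicate 1 it was 0.62 (adjusted p = 0.161). Its 2 probe sets above the filter gave 1.09 and 1.76. Sdha, which carries the flavin, had log2 levels of 9.67 and 9.89 in saline, 9.67 and 10.35 at 1.5, 10.77 and 10.79 at 3.0 and 10.72 and 10.39 at 4.5 mg/kg/day. All but replicate 1 at 1.5 mg/kg/day lay above saline, and the fold change was 0.67 ± 0.21 (adjusted p = 0.0906). Sdhb, the iron-sulfur subunit whose promoter window around the NRF1 letters is shown earlier, gave 0.58 ± 0.24 (adjusted p = 0.16, limma).

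Sdhd, the other anchor, had log2 levels of 10.63 and 10.32 in saline, 9.70 and 10.31 at 1.5, 10.64 and 10.71 at 3.0 and 10.55 and 10.18 at 4.5 mg/kg/day. Both arrays at 1.5 mg/kg/day lay below both saline arrays and both at 3.0 mg/kg/day above them. The fold change of -0.13 ± 0.21 for the mean of the doses did not pass (adjusted p = 0.704, limma). Its probe sets differed in direction, with differences of -0.13 and 0.38, so the sign for Sdhd is uncertain.

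Complex III moves electrons from ubiquinol to cytochrome c. All 8 subunits had a positive difference for the mean of the doses, from 0.19 to 0.99 with a median of 0.38, and none passed the test. All 8 lay above both saline arrays on both arrays at 3.0 and on both at 4.5 mg/kg/day, and none did at 1.5 mg/kg/day. Uqcrc1, a core protein on the matrix side with the NRF1 letters in its promoter, had log2 levels of 9.42 and 10.03 in saline, 9.90 and 10.61 at 1.5, 11.02 and 11.02 at 3.0 and 11.24 and 10.52 at 4.5 mg/kg/day. The 2 higher doses lay above saline with no overlap, and the low dose overlapped it. The fold change was 0.99 ± 0.29 (adjusted p = 0.0712, limma). Uqcrc2, the other core protein, gave 0.26 ± 0.20 (adjusted p = 0.42). Uqcrfs1, the Rieske iron-sulfur protein, had log2 levels of 10.67 and 10.79 in saline, 10.40 and 10.97 at 1.5, 11.48 and 11.48 at 3.0 and 11.51 and 11.03 at 4.5 mg/kg/day. Replicate 1 at 1.5 mg/kg/day was its lowest array, and the fold change was 0.42 ± 0.21 (adjusted p = 0.221). Uqcr11, a small subunit, gave 0.74 ± 0.29 (adjusted p = 0.138). Uqcrb, with the highest mean level of all 73 genes (12.67), gave 0.24 ± 0.21, and Uqcrh, the hinge protein that contacts cytochrome c1, gave 0.19 ± 0.18. Uqcrq had the widest gap in the complex, 0.84 at 1.5 mg/kg/day, and gave 0.39 ± 0.28.

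The widely expressed subunits of complex IV had the lowest median of the classes, a log2 fold change of 0.23 for the mean of the doses, and 0 of 10 passed the test in either direction. Cox4i1, the ubiquitous form of subunit 4, had log2 levels of 11.71 and 11.74 in saline, 11.52 and 12.03 at 1.5, 12.20 and 12.32 at 3.0 and 12.31 and 12.03 at 4.5 mg/kg/day. Both arrays at 3.0 and both at 4.5 mg/kg/day lay above saline, and the low dose lay on either side of it. The fold change was 0.35 ± 0.18 (adjusted p = 0.242, limma). Cox6b1, which faces the intermembrane space and had the highest level in the complex (12.17), gave 0.40 ± 0.22 (adjusted p = 0.262). Cox6c gave 0.35 ± 0.18, Cox5b gave 0.30 ± 0.20 and Cox5a gave 0.19 ± 0.17. Cox8a gave 0.26 ± 0.24 and Cox7a2, the form of subunit 7a found in most tissues, gave 0.21 ± 0.15. Adjusted p for these 5 was between 0.243 and 0.489. Cox7c was read by a probe set near background, at 4.81 to 5.23, and gave 0.14 ± 0.16, so its level is uncertain.

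Ndufa4, once counted with complex I and now with complex IV, had log2 levels of 11.08 and 11.07 in saline, 10.47 and 10.57 at 1.5, 10.97 and 11.39 at 3.0 and 11.15 and 10.94 at 4.5 mg/kg/day. Both arrays at 1.5 mg/kg/day lay below both saline arrays, and the 2 higher doses spread around saline. Its fold change was -0.16 ± 0.16 for the mean of the doses (adjusted p = 0.528, limma) and -0.55 ± 0.20 at 1.5 mg/kg/day (adjusted p = 0.181), neither past the threshold. Ndufa4l2, its paralog and a gene known for its induction by low oxygen, had log2 levels of 5.70 and 6.06 in saline, 7.84 and 6.96 at 1.5, 6.65 and 6.80 at 3.0 and 7.08 and 6.89 at 4.5 mg/kg/day. All 6 nicotine arrays lay above both saline arrays, and replicate 1 at the lowest dose was the highest. Its level averaged 7.40 ± 0.62 at 1.5 mg/kg/day and 5.88 ± 0.26 in saline (SD, n = 2 arrays each). It rose by 1.16 ± 0.25 log2 units for the mean of the doses (adjusted p = 0.0361). The call held without either low-dose array, and the adjusted p was 0.0651 to 0.122 without any 1 of the other 6. No single dose passed: the fold changes were 1.52 ± 0.31 at 1.5 (adjusted p = 0.0553), 0.85 ± 0.31 at 3.0 (adjusted p = 0.155) and 1.11 ± 0.31 at 4.5 mg/kg/day (adjusted p = 0.0754).

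Cox6a2 is the form of subunit 6a used in heart and skeletal muscle, and it had the largest fold change of the 73 genes. Its log2 levels were 9.61 and 9.01 in saline, 10.44 and 10.85 at 1.5, 10.73 and 10.50 at 3.0 and 10.60 and 10.79 at 4.5 mg/kg/day. All 6 nicotine arrays lay within 10.44 to 10.85 and above both saline arrays. The level averaged 10.64 ± 0.29 at 1.5, 10.62 ± 0.16 at 3.0 and 10.70 ± 0.14 at 4.5 mg/kg/day, against 9.31 ± 0.43 in saline (SD, n = 2 arrays each). The log2 fold change was 1.34 ± 0.21 for the mean of the doses (adjusted p = 0.0161, limma), 1.30 ± 0.26 at 3.0 (adjusted p = 0.0475) and 1.38 ± 0.26 at 4.5 mg/kg/day (adjusted p = 0.0315). At 1.5 mg/kg/day it was 1.33 ± 0.26, just outside the threshold (adjusted p = 0.0526). Its slope passed at 0.27 ± 0.06 per mg/kg/day (adjusted p = 0.0372), although the 3 dose means lay close together. Its 2 probe sets gave 1.23 and 1.34. The call was lost without saline replicate 2 (fold change 1.06, adjusted p = 0.0585) and without either array at 3.0 mg/kg/day (adjusted p = 0.0605 without replicate 1 and 0.0534 without replicate 2). The summed skeletal muscle markers were likewise higher on all 6 nicotine arrays than on both saline arrays, and their part in the result was not tested.

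Cox6a1, the form of most other tissues, had log2 levels of 11.90 and 11.97 in saline, 11.44 and 11.87 at 1.5, 12.24 and 12.28 at 3.0 and 12.47 and 11.56 at 4.5 mg/kg/day. The low dose lay below saline, 3.0 mg/kg/day above it and the 2 arrays at 4.5 mg/kg/day on either side. The fold change was 0.04 ± 0.25 (adjusted p = 0.925, limma). Cox4i2, the form of subunit 4 known from lung and low oxygen, had log2 levels of 5.14 and 5.25 in saline, 5.50 and 5.55 at 1.5, 5.73 and 5.72 at 3.0 and 6.0 and 5.47 at 4.5 mg/kg/day. All 6 nicotine arrays lay above both saline arrays, at levels little above the filter, and the fold change was 0.47 ± 0.17 (adjusted p = 0.125). Cox8c, known from testis, was also above saline on all 6 and gave 0.44 ± 0.13 (adjusted p = 0.0713). Cox6b2, another testis form, had log2 levels of 6.15 and 7.05 in saline, 6.29 and 6.55 at 1.5, 7.35 and 7.91 at 3.0 and 8.10 and 6.55 at 4.5 mg/kg/day. Its arrays at 4.5 mg/kg/day differed by 1.55, the widest gap in complex IV, and the fold change was 0.53 ± 0.44 (adjusted p = 0.446). Cox7a2l, which helps join complexes III and IV, gave 0.06 ± 0.16 (adjusted p = 0.82).

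Cox7a1 and Cox8b, the forms of heart, skeletal muscle and brown fat, are outside the 75 genes and serve for comparison. Both are also counted among the brown fat markers described earlier. Cox7a1 had log2 levels of 7.47 and 7.44 in saline, 7.62 and 9.95 at 1.5, 10.70 and 11.08 at 3.0 and 10.95 and 10.05 at 4.5 mg/kg/day. Its fold change for the mean of the doses was 2.61 ± 0.57 (adjusted p = 0.0373, limma). Cox8b had log2 levels of 8.66 and 7.68 in saline, 9.48 and 10.43 at 1.5, 11.25 and 11.69 at 3.0 and 11.59 and 10.68 at 4.5 mg/kg/day and a fold change of 2.69 ± 0.39 (adjusted p = 0.0123). Both rose, and unlike Cox6a2 both were higher at 3.0 and 4.5 mg/kg/day than on either low-dose array.

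**Figure D4:**
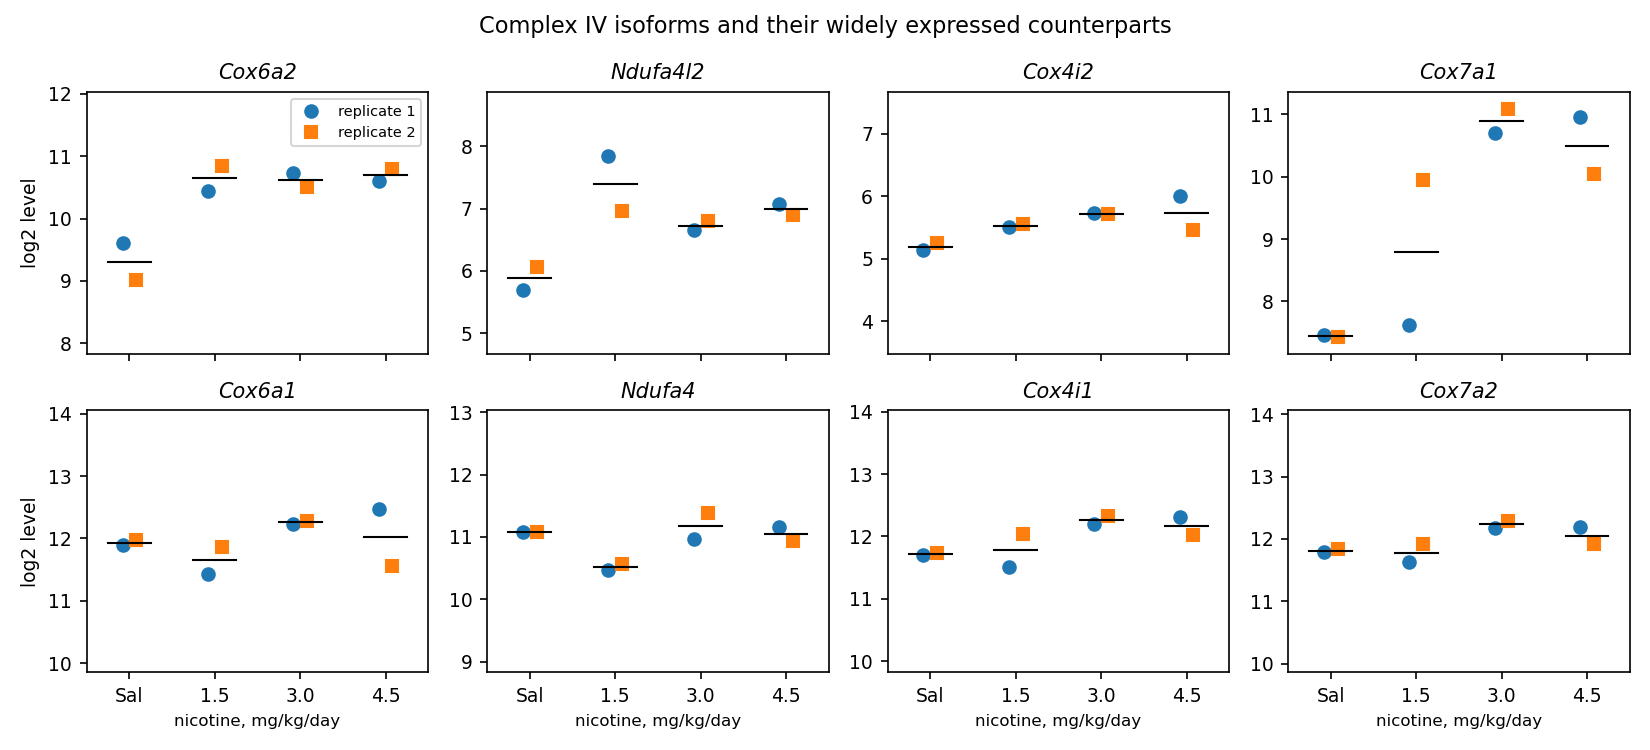
Log2 levels of 4 complex IV genes with tissue forms (upper row) and of their widely expressed counterparts (lower row), with 1 point per array, the group mean as a line, and saline followed by the 3 nicotine doses. Every panel spans the same range of log2 units. Cox6a2 lay at 10.44 to 10.85 on the 6 nicotine arrays, above 9.01 and 9.61 in saline, while Cox6a1 overlapped saline.

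Assembly factors build the complexes and are not part of them. Of 12, 11 had a positive difference for the mean of the doses, with a median of 0.39, and none passed the test. Ndufaf7, a methyltransferase for a complex I core subunit, had log2 levels of 6.53 and 6.51 in saline, 7.03 and 7.05 at 1.5, 7.33 and 7.52 at 3.0 and 7.66 and 7.03 at 4.5 mg/kg/day. All 6 nicotine arrays lay above both saline arrays, and the fold change was 0.75 ± 0.19 (adjusted p = 0.0533, limma). Ndufaf3, which acts early in complex I assembly, gave 0.81 ± 0.33 (adjusted p = 0.149). Ndufaf4, its partner, gave -0.01 ± 0.18. Ndufaf5, with the lowest mean level (6.69), gave 0.71 ± 0.26. Ndufaf6 had the widest gap, 1.08 at 1.5 mg/kg/day, and gave 0.62 ± 0.32. Sdhaf4, a chaperone of the flavin subunit of complex II, had the highest mean level (8.89) and gave 0.30 ± 0.17. Sdhaf2, which helps insert that flavin, gave 0.22 ± 0.15.

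Fold change and level were weakly related across the 73 genes, which share the same arrays (Pearson's r -0.15, Spearman's rho -0.327, given as a description). Of the 43 genes with more than 1 probe set, 39 had more than 1 above the filter, and in 34 of these all probe sets differed from saline in 1 direction. The exceptions were Cox6a1, Ndufab1, Ndufaf4, Ndufb8 and Sdhd. In 27 of the 39 the median of the other probe sets exceeded the difference of the chosen one. The median difference was 0.477 for the other probe sets and 0.39 for the chosen ones. For the called genes Cox6a2, Ndufs4 and Ndufb5 the chosen probe set gave the largest difference.

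Other mitochondrial genes, in lists chosen by function, were counted for the mean of the doses, where 4.75% of all genes were called higher and 5.40% lower. In a list of the tricarboxylic acid cycle together with pyruvate dehydrogenase, 4 of 16 genes rose and 0 fell, with a median log2 fold change of 0.83. Dlat, a subunit of pyruvate dehydrogenase, rose by 1.26 ± 0.28 (adjusted p = 0.0376, limma), Cs, citrate synthase, by 1.16 ± 0.27 (adjusted p = 0.0442), and Idh3a and Idh3g, subunits of isocitrate dehydrogenase, by 0.99 ± 0.22 (adjusted p = 0.0391) and 1.11 ± 0.26 (adjusted p = 0.0451). Among 17 ATP synthase genes, 0 rose and 1 fell, with a median of 0.24. That gene was Atpif1, the inhibitor of ATP synthase, with log2 levels of 10.39 and 10.50 in saline, 9.91 and 10.23 at 1.5, 9.22 and 9.33 at 3.0 and 9.20 and 9.54 at 4.5 mg/kg/day and a fold change of -0.87 ± 0.16 (adjusted p = 0.0259). Cytochrome c and cytochrome c1, the carrier after complex III and the subunit that feeds it, gave 0 calls of 3 genes, with Cyc1 at 0.59 ± 0.23 (adjusted p = 0.143) and Cycs at 0.32 ± 0.16 (adjusted p = 0.23). Of 22 assembly factors of complexes III and IV, 0 were called and the median was 0.15. Among 15 regulators of mitochondrial biogenesis, 1 rose, Perm1, a muscle regulator, by 1.32 ± 0.21 (adjusted p = 0.0154), and Ppargc1b, a coactivator, gave 0.87 ± 0.27 (adjusted p = 0.0829). Of 18 genes of mitochondrial import and the mitochondrial ribosome, 1 rose, Tomm40, the import pore, by 1.11 ± 0.27 (adjusted p = 0.0475).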

How the data were processed

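Expression was measured on 8 Affymetrix arrays of 45101 probe sets, 2 in each of 4 groups. The authors deposited 1 linear intensity per probe set and array. The sources used here do not give its summarization, background correction or scaling. Array medians lay between 20.7 and 25.4, and precision is limited by the small number of arrays. Of the probe sets, 34958 named 1 gene. Intensities were taken as log2(intensity + 16), which understates the fold changes of dim genes, and quantile normalized, since array medians differed by 0.17. Genes under the 40th percentile of probe sets (log2 level 4.94) were left out, and 13587 were tested.

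Group means over all 8 arrays were fitted with limma 3.58.1 in R 4.3.3 (4 residual, 6.85 total degrees of freedom). Tests were two-sided, adjusted by Benjamini-Hochberg over all genes tested, and called at an adjusted p under 0.05. Errors of fold changes are standard errors. The procedure was tested on simulated data. The genes, lists, motifs and the rule for named genes (called genes, complex IV isoforms, catalytic subunits, extremes of each complex, and up to 4 genes per list) were chosen with earlier results of these data known. Alternatives covered the added constant, normalization, level filter, choice of probe sets, replicate block, array weights and left-out arrays. Protein sequences were not used here.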

Additional observations from a re-analysis of the deposited data

Results flagged for a closer look

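Between the 1.5 and 3.0 mg/kg/day groups, 4 genes lay on opposite sides of saline: both arrays at 3.0 mg/kg/day lay above both saline arrays and both at 1.5 mg/kg/day below them. The log2 difference of 3.0 over 1.5 mg/kg/day was 0.61 for Cox6a1, 0.686 for Ndufaf4, 0.683 for Sdhaf3 and 0.671 for Sdhd. Sdhaf3 showed the same order at 4.5 mg/kg/day, with 0.664 over 1.5 mg/kg/day. Among all genes, 21.7% lay below both saline arrays at 1.5 mg/kg/day and 34.8% above them at 3.0 mg/kg/day. The share of all genes with both orders at once is not given here, so the count does not set these genes apart. They stand here for the order of the arrays, and the limma test of the doses against each other called none of them. Probe sets disagreed in direction for Cox6a1, Ndufaf4 and Sdhd. Groups of 2 arrays were too small to look for single outlying arrays.

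Probe sets whose annotation lists several genes were not used for any gene. For 3 of them that list a respiratory chain gene, all 6 nicotine arrays lay above both saline arrays, and for the others that list one they did not. The 3 were picked by this order, and the share of all probe sets with it is not given here. The difference between the means was 0.826 for a probe set listing Ndufs5 and a pseudogene of it, and 0.588 and 0.605 for 2 dim probe sets listing Yjefn3 and Ndufa13. The 2 probe sets listing Ndufb4, Ndufb4b and Ndufb4c differed by 0.608 and 0.645, with replicate 1 at 1.5 mg/kg/day between the saline arrays.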

How the results depend on the processing

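Deviations of same-numbered arrays from their group means correlated from -0.221 to 0.333 over the 6 pairs of groups. With 2 arrays a group, these values cannot show whether the replicate numbers pair the arrays. With the replicate block, 1 gene was called for the mean of the doses, 0 at 3.0 and 1 at 4.5 mg/kg/day and 1 for the slope. Array weights gave 1 for the mean of the doses, 0 at 4.5 mg/kg/day and 1 for the slope. A constant of 1 gave 0 at 3.0 mg/kg/day, a constant of 64 gave 1 at 1.5 mg/kg/day, and the values as deposited gave 1 at 3.0 mg/kg/day. The mean of all probe sets gave 7 for the mean of the doses and 5 for the slope. Only the groups compared gave 0 at 3.0 and 0 at 4.5 mg/kg/day. Without the 2 arrays highest in liver genes, 1 gene was called at 1.5, 7 at 3.0 and 6 at 4.5 mg/kg/day and 17 for the slope, where 5.09%, 7.70%, 10.6% and 13.4% of all genes were. Without the 3 arrays highest in brown fat genes (chosen after seeing the data, with fewer arrays to estimate the spread), 0 were called for the mean of the doses, at 4.5 mg/kg/day and for the slope, and the median fold change was 0.201. Leaving out 1 array at a time gave 0 to 8 for the mean of the doses, 0 to 1 at 1.5, 0 to 4 at 3.0 and 0 to 4 at 4.5 mg/kg/day and 0 to 10 for the slope, with medians of 0.383 to 0.572. For the mean of the doses, 0 were called without either array at 3.0 mg/kg/day, 1 without saline replicate 2 or replicate 1 at 4.5 mg/kg/day, 2 without saline replicate 1 and 8 without replicate 1 at 1.5 mg/kg/day. Comparisons between doses gave 0 calls throughout. Where no share of all genes stands beside a count of calls, that share is not given here. Such a count shows how the calls depend on the processing and is not a result about the respiratory chain genes alone.

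For the mean of the doses Cox6a2 passed in 15 of 19 alternatives (adjusted p 0.011 to 0.169, limma), Ndufs4 in 10 (0.021 to 0.244), Ndufb5 in 9 (0.0193 to 0.287) and Ndufa4l2 in 9 (0.0106 to 0.219), all with a positive fold change. Sdhc passed in 4. Differences that changed sign were all far from the threshold. Ndufa4 was 0.0123 with arrays centred on their medians. Sdhd was 0.126 and Ndufaf4 0.1 with the mean of probe sets. Cox5a was -0.0135, Cox7c -0.0465 and Ndufaf4 0.0495 without the liver-high arrays. Cox5a was -0.0252, Cox6a1 -0.362, Cox6b2 -0.114, Cox8a -0.0459 and Ndufa2 -0.191 without the brown-fat-high arrays. With 1 array left out, Sdhd ran from -0.29 to 0.0273, Cox7a2l ran from -0.00751 to 0.129, Cox7c from -0.0575 to 0.338, Ndufaf4 from -0.0776 to 0.0634, Cox6a1 from -0.113 to 0.192 and Ndufa2 from -0.0599 to 0.159. The cause of these shifts was not tested.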
